A study of Rattus norvegicus with 6 samples.

Results

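The antioxidant and NADPH-supplying genes described here are 32 rat genes given by name as RefSeq symbols. No threshold on these values chose them, but they were chosen with earlier results of these data known. Probes of the arrays were assigned to them when the accession printed for the probe, version dropped, belonged to that symbol. Probes were matched for 31 of the 32 genes, among 15645 symbols with a probe in the series, and 54 probes represented them; no probe was matched to Pgd. A total of 29 of the 31 passed the filter on dim probes and entered the test, among 29938 genes tested. Of these 29938, 12155 had a symbol. The rest were accessions without a symbol, each counted as a gene. Shares over all genes tested include them, whereas every member has a symbol.

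The tissue was renal cortex, which holds the glomeruli and most of the proximal tubules, and its RNA was measured on one-colour Agilent arrays, 1 array per animal. The 3 treated animals were male Sprague-Dawley (Crl:CD(SD)) rats given phenylbutazone, an anti-inflammatory cyclooxygenase inhibitor, at 200 mg/kg/day for 4 weeks. The 3 vehicle animals were male rats of the same stock given corn oil for 4 weeks, and all 6 had been bought at an age of 5 weeks; the dosing route is not given in the sources used here. The submitters call the samples biological replicates, so n = 3 per group throughout, and the small number of arrays limits the precision.

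As background, the transcription factor NRF2, encoded by Nfe2l2, is held at low levels by KEAP1 and, when oxidants or electrophiles modify KEAP1, binds antioxidant response elements of genes for glutathione synthesis, thioredoxin reduction, quinone and carbonyl reduction and NADPH supply. Glutathione and thioredoxin pass electrons from NADPH to peroxides through glutathione peroxidases and peroxiredoxins, while superoxide dismutases and catalase dispose of superoxide and hydrogen peroxide directly. The proximal tubule, which carries out oxidative transport work and takes up drugs and their conjugates, is rich in these enzymes.

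The letters that NRF2 is known to bind were looked for in the RefSeq promoter windows of the members (build GRCr8, 250 bases before to 50 after the annotated gene start, 34 windows of 30 members). The core of the element, TGACNNNGC on either strand, stood in a window of 9 of the 30 members, against 13.1% of all 27457 genes with a window. Among genes tested with a window the share was 14.9%, and among 50 other genes of the pathways listed below it was 12.0%. The stricter form TGACTCAGC, which contains the AP-1 site TGACTCA and so cannot be told from it by its letters, stood in windows of 3 members, Prdx1, Me1 and Ephx1, against 0.484% of all genes with a window. The matches before the annotated start are shown with the bases on either side, read on the strand of the motif, with the core in capitals, because they are a feature of the genes that does not come from the arrays.
Prdx1, chr5:135383756-135383794: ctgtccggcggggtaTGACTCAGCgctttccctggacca
Me1, chr8:96540388-96540426: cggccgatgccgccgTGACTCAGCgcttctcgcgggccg
Ephx1, chr13:95263151-95263189: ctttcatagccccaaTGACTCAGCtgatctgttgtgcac
Gclm, chr2:213031948-213031986: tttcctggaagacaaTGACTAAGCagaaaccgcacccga
Gpx2, chr6:101230023-101230061: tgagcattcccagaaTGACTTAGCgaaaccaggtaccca
Txnrd1, chr7:22755959-22755997: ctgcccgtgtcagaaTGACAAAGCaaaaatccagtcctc
Ugdh, chr14:43202296-43202334: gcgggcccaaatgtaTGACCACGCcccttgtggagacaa
Sod2, chr1:50050180-50050218: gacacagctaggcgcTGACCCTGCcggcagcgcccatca
The Me1 motif lies on the strand of its gene (minus), and the other 7 lie on the strand opposite to their gene, which is plus for Prdx1, Gclm and Ugdh and minus for Ephx1, Gpx2, Txnrd1 and Sod2. The ninth match, of Nfe2l2, lay after the annotated start. For Txnrd1 and Ephx1 only 1 of the annotated windows held the core.

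The 250 bases before the start of the 3 genes with the stricter form are given in full, 5′ to 3′ on the strand of the gene, so that the motif can be read in its surroundings; capitals mark the motif, which reads as its reverse complement in Prdx1 and Ephx1.
Prdx1, plus strand, chr5:135383656-135383905: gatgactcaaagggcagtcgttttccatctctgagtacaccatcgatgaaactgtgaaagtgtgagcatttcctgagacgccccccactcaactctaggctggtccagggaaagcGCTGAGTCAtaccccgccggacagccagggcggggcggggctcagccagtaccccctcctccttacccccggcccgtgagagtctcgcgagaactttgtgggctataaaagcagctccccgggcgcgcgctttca
Me1, minus strand, chr8:96540245-96540494: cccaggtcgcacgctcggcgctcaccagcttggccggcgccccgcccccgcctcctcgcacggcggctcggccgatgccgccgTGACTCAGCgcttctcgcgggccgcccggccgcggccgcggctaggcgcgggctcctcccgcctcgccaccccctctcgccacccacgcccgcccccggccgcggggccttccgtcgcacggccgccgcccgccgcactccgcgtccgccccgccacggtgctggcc
Ephx1, minus strand, chr13:95263118-95263367: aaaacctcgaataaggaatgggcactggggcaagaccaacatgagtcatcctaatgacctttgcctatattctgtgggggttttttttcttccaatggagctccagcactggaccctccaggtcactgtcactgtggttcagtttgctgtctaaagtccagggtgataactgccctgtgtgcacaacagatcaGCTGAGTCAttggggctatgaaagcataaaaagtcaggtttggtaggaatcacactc
On the strand of the gene the motif began 135 bases before the start for Prdx1, 167 bases before it for Me1 and 57 bases before it for Ephx1. A match describes these letters and does not show binding, and a missing match says nothing about elements outside the window.

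Levels are log2 values of the processed intensity relative to the 75th percentile of the same array, and differences are phenylbutazone minus vehicle in log2 units with the standard error (SE) of a limma fit. A gene was represented by its brightest probe, levels are compared between animals and not between genes, and a call required an adjusted p under 0.05 (Benjamini-Hochberg over all genes tested). On each array 65.2% to 68.4% of the probes passed Agilent's test of being well above background. Vehicle 1 and 2 shared slide 1, whereas vehicle 3 and phenylbutazone 1, 2 and 3 lay together on slide 2, scanned on a different day. Vehicle 3 stood apart: it was the highest or lowest of the 6 arrays for 57.6% of all genes tested, and for 15 of the 29 members, highest in 5 and lowest in 10. Differences are therefore also given within slide 2, against vehicle 3 alone, which equals the estimate with slide as a block. Adjusted p-values with slide as a block rest on this single vehicle array. In that setting 31.6% of all genes tested had an unadjusted p under 0.05 (limma).

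All 10 proximal tubule and all 5 podocyte markers passed the filter, as the cortex label has it. However, so did all 4 markers listed for tissue beyond the cortex, Slc14a2 of the medulla and Upk1b, Upk3a and Krt5 of urothelium. Those 4 summed to 0.307 to 0.415 times the 75th percentile in phenylbutazone and 0.284 to 0.508 times it in vehicle. Proximal tubule markers summed to 1630 to 1650 in phenylbutazone and 1547 to 1675 in vehicle, with 5 of 10 higher and 5 lower. Of 14 erythrocyte markers tested 12 were higher and 2 lower, with a median difference of 0.39; their sum was 916, 635 and 1018 in phenylbutazone 1, 2 and 3 and 544, 740 and 533 in vehicle 1, 2 and 3, so that the groups overlapped, and 1 of 15 markers with a probe, Rhag, was well above background on no array. The 4 intercalated cell markers were all higher, with sums of 82.4 to 104 in phenylbutazone and 56.0 to 77.9 in vehicle, as were the 4 thick ascending limb markers (sums of 297 to 399 in phenylbutazone and 180 to 301 in vehicle). Macrophage markers summed to 61.4 to 84.5 in phenylbutazone and 62.6 to 87.1 in vehicle. The 3 neutrophil markers tested were all higher (median 0.34), with overlapping sums of 0.420 to 0.811 in phenylbutazone and 0.267 to 0.773 in vehicle. The part of these cells in the results below was not tested, and in whole tissue fewer cells of a type and less RNA per cell cannot be told apart.

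The question put to the arrays was which of these genes differ in the cortex after dosing with phenylbutazone. The 29 tested members leaned toward higher levels, by small amounts: 22 were higher and 7 lower in phenylbutazone, with a median difference of 0.17, whereas 52.8% of all 29938 genes tested were higher and their median difference was 0.015. The highest group median was 0.32, over the 3 tested members of the pentose phosphate and malic enzyme group. That value is the one of Me1, malic enzyme, whose groups overlapped. Next came 0.30, over the 8 of carbonyl, quinone and epoxide metabolism. With slide as a block these medians were 0.59 and 0.15, the second then below the thioredoxin group (0.30). No member passed the test (limma, 0 of 29, as 0% of all genes tested), and the lowest adjusted p among the members was 0.330. At an unadjusted p under 0.05 (limma) stood 4 members, all higher, that is 13.8% of the members against 12.2% of all genes tested in either direction and 5.97% in the higher direction; 0 members stood there in the lower direction, against 6.24% of all genes tested. In 10 members all animals of one group lay above all animals of the other, 34.5% against 21.5% of all genes tested; 8 were higher in phenylbutazone (27.6% against 12.1%) and 2 lower (6.90% against 9.39%). These shares carry no test, and the members were chosen with earlier results of these data known.

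**Figure D1:**
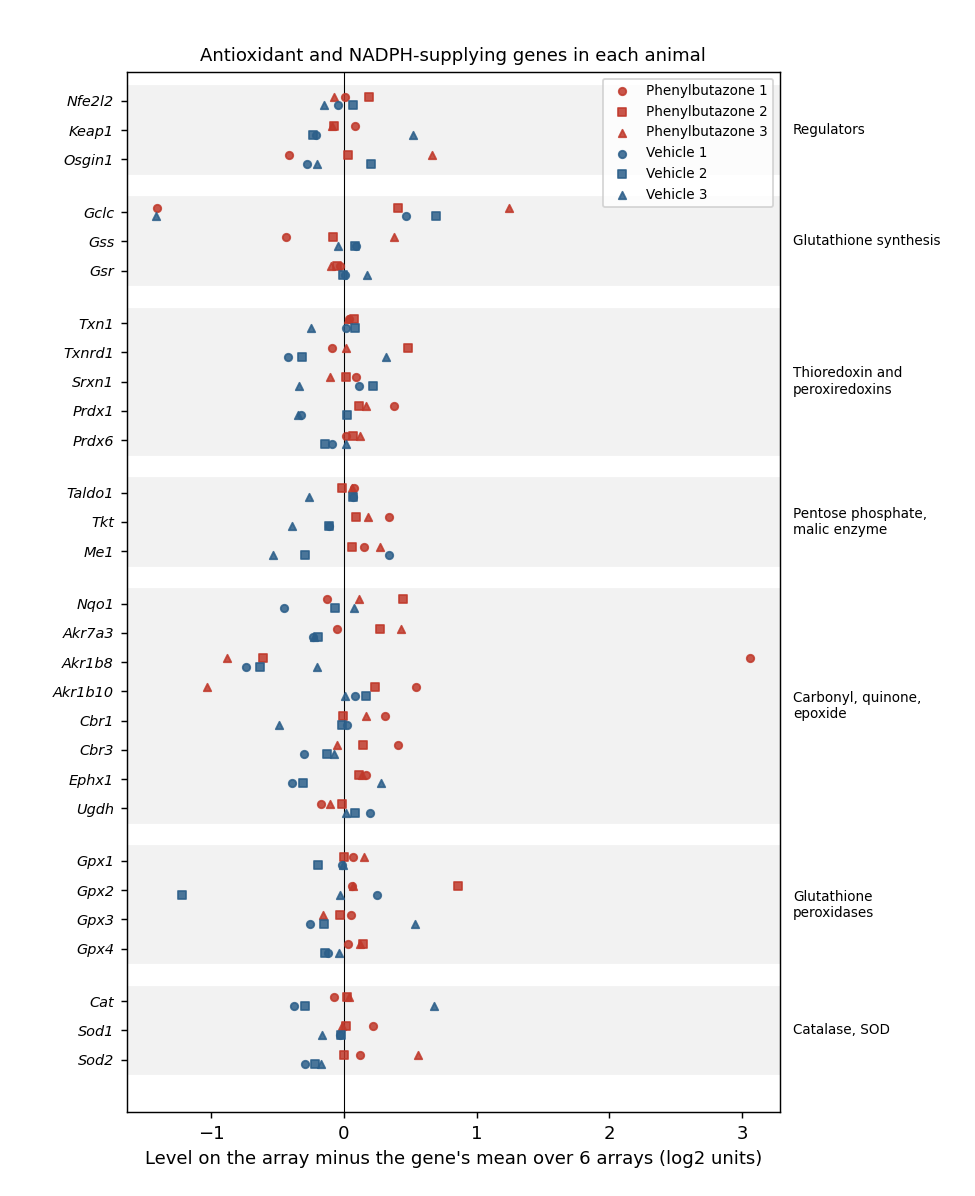
Level of each of the 29 tested members in each animal, as the deviation in log2 units from the mean of that gene over the 6 arrays; red symbols are phenylbutazone animals 1 to 3 and blue symbols vehicle animals 1 to 3, one symbol per array. Most points lie close to 0, while Akr1b8, Gclc, Gpx2 and Akr1b10 have the animals farthest from it.

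Taken as a median over the 29 members, the deviation of an animal was 0.062, 0.059 and 0.066 in phenylbutazone 1, 2 and 3 and -0.092, -0.11 and -0.075 in vehicle 1, 2 and 3. The groups did not overlap in this summary, whose own SD within groups was 0.014. A median over many genes varies less than single genes do, so this SD is not comparable with that of single genes. The same summary over all genes is not given here. The median difference of the members ran between 0.086 with quantile normalization and 0.24 with slide as a block. For single genes the median SD among animals of a group was 0.22 log2 units over the members and 0.20 over all genes tested.

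Among the regulators, Nfe2l2, Keap1 and Osgin1 showed no difference past the test. Levels of Nfe2l2 were 4.02, 4.21 and 3.94 in phenylbutazone 1, 2 and 3, against 3.97, 4.08 and 3.86 in vehicle 1, 2 and 3. The difference was 0.083 ± 0.12 (95% interval -0.20 to 0.37), and a second Nfe2l2 probe stood at -0.075. In phenylbutazone 1, 2 and 3 the levels of Keap1 were 0.79, 0.63 and 0.62, and in vehicle 1, 2 and 3 they were 0.50, 0.47 and 1.23. Its level in vehicle 3 lay above the other 5, so that the difference was -0.052 ± 0.22 over all arrays and -0.55 within slide 2 (limma adjusted p = 0.0612 with slide as a block). Osgin1, an oxidative stress response gene, ranged over 2.11-fold among the animals, with both its highest level (animal 3) and its lowest (animal 1) in the phenylbutazone group.

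Other regulators of the same pathway were taken from a list of 10 genes, of which 8 were higher and 2 lower in phenylbutazone (median 0.15), with 0 past the test (limma) and 3 higher at an unadjusted p under 0.05, where 5.97% of all genes tested stood. For Maff the values were -4.19, -3.31 and -3.64 in phenylbutazone 1, 2 and 3 and -4.83, -4.70 and -4.50 in vehicle 1, 2 and 3. Maff, a small MAF protein that pairs with NRF2 or with BACH proteins on DNA, thus lay higher in each treated animal than in any vehicle animal, by 0.96 ± 0.24 (1.95-fold, limma adjusted p = 0.276); a second probe was well above background on 2 of 6 arrays only. Phenylbutazone 1, 2 and 3 had Bach2 levels of -0.84, -0.42 and -0.74, against -1.28, -1.07 and -1.36 in vehicle 1, 2 and 3. Bach2, a repressor that uses the same small MAF partners, differed by 0.57 ± 0.15 (limma adjusted p = 0.296), again with no overlap; a second probe was well above background on 1 of 6 arrays only. Nfe2l1, the NRF2 relative that governs proteasome genes, differed by 0.44 ± 0.14 (limma adjusted p = 0.332), and its groups did not overlap either.

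Glutathione synthesis and recycling was the group with a median difference under 0, -0.091 over 3 tested members, and its median level per animal varied more within treatments than that of the other groups (SD 0.29). The enzyme that sets the pace of glutathione synthesis has its catalytic subunit encoded by Gclc. Gclc stood at 3.81, 5.62 and 6.46 in phenylbutazone 1, 2 and 3, against 5.68, 5.90 and 3.80 in vehicle 1, 2 and 3. The level was low in phenylbutazone 1 and in vehicle 3, and the highest and lowest of the 6 animals differed 6.32-fold. A second Gclc probe showed the same 2 low animals, at -0.94, 0.96 and 1.88 in phenylbutazone 1, 2 and 3 and 1.20, 1.46 and -0.55 in vehicle 1, 2 and 3. Of all genes tested 1.12% had a larger SD within groups than Gclc (1.26). The mean difference was 0.17 ± 0.83 (95% interval -1.85 to 2.19), and leaving out 1 animal moved it between -0.50 (without vehicle replicate 3) and 0.91 (without phenylbutazone replicate 1).

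Gclm, the modifier subunit, had 1 dim probe, which passed the background test on 0 of the 3 arrays of phenylbutazone and on the 2 vehicle arrays of slide 1. Its levels were -7.63, -7.78 and -7.05 in phenylbutazone 1, 2 and 3, against -4.81, -4.15 and -7.09 in vehicle 1, 2 and 3. With each phenylbutazone array set at its lowest level well above background, and vehicle at its own levels, Gclm was 1.16-fold lower in phenylbutazone. This is not a strict minimum, because vehicle 3 was itself not well above background. Gclm was not tested, and treatment and slide cannot be told apart for it, because vehicle 3 was as dim as the treated animals. The cystine transporter gene Slc7a11 was not well above background on any array with any of its 3 probes.

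Levels of Gss were 2.86, 3.22 and 3.68 in phenylbutazone 1, 2 and 3, against 3.39, 3.38 and 3.25 in vehicle 1, 2 and 3. Gss, glutathione synthetase, differed by -0.091 ± 0.21, and within the phenylbutazone group it followed the order of Gclc, lowest in animal 1 and highest in animal 3. Genes of glutathione turnover outside the members were read beside this after the values were seen. In phenylbutazone 1, 2 and 3 the levels of Ggct were 3.39, 3.89 and 4.59, and in vehicle 1, 2 and 3 they were 4.42, 4.19 and 4.03. For Ggt1 the values were 4.38, 5.35 and 5.56 in phenylbutazone 1, 2 and 3 and 5.28, 5.34 and 5.07 in vehicle 1, 2 and 3. Ggct, which opens gamma-glutamyl amino acids released from glutathione, and Ggt1, the brush border enzyme that starts glutathione breakdown, thus also stood lowest in phenylbutazone 1 and highest in phenylbutazone 3, and 4 of 4 Ggct probes had the same order in the phenylbutazone group. Those 4 probes read the same gene in the same animals. In the whole turnover list 5 of 12 genes had this order and 7 had others. The share of all genes tested with this order is not given here, so these counts have no reference. Over the list of 12 such turnover genes 4 were higher and 8 lower in phenylbutazone (median -0.098), with 0 past the test and 0 at an unadjusted p under 0.05 (limma).

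Phenylbutazone 1, 2 and 3 had Gsr levels of 0.86, 0.83 and 0.78, against 0.89, 0.88 and 1.05 in vehicle 1, 2 and 3. Gsr, glutathione reductase, which spends NADPH to restore glutathione, lay lower in each treated animal than in any vehicle animal, with a difference of -0.12 ± 0.097 (limma adjusted p = 0.658); vehicle 3 had the highest level.

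**Figure D2:**
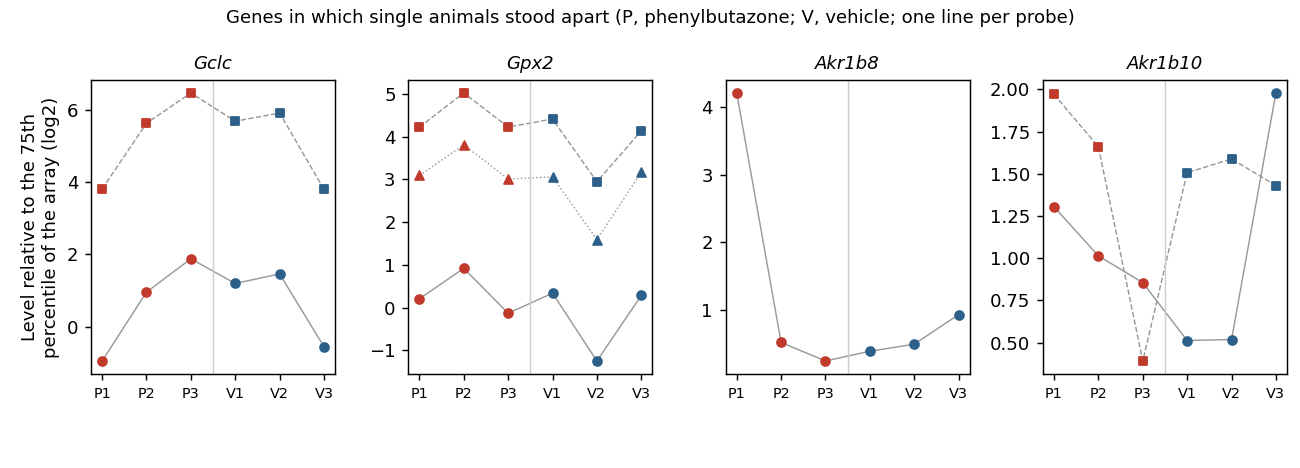
Level of each probe of Gclc, Gpx2, Akr1b8 and Akr1b10 in log2 units relative to the 75th percentile of the array, with phenylbutazone animals P1 to P3 in red left of vehicle animals V1 to V3 in blue; symbols and grey lines mark the values of one probe. Both Gclc probes are low in P1 and V3, all 3 Gpx2 probes are low in V2, the Akr1b8 probe is high in P1, and the 2 Akr1b10 probes differ from each other.

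In the thioredoxin group 5 of 5 members were higher in phenylbutazone over all arrays (median 0.14), Txnrd1 turning lower within slide 2 and with slide as a random block, and Srxn1 and Txn1 turning lower with quantile normalization, Srxn1 also with normexp background correction. Prdx1 stood at 5.71, 5.44 and 5.50 in phenylbutazone 1, 2 and 3, against 5.01, 5.35 and 4.99 in vehicle 1, 2 and 3. Prdx1, a cytosolic peroxiredoxin that reduces hydrogen peroxide, showed no overlap between the groups, with 0.44 ± 0.14 (1.35-fold, 95% interval 0.087 to 0.78, limma adjusted p = 0.346). Within slide 2 the Prdx1 difference was 0.57. Peroxiredoxins are also abundant in erythrocytes, and the erythrocyte sum was highest in phenylbutazone 1 and 3; Prdx2, the main erythrocyte peroxiredoxin, differed by 0.11 ± 0.086 with no overlap. The part of erythrocytes in the Prdx1 difference was not tested.

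Prdx6, which reduces phospholipid hydroperoxides, differed by 0.14 ± 0.096, with phenylbutazone 1 just below vehicle 3, both at 4.16. Txn1, thioredoxin itself, lay between 6.98 and 7.06 in all 3 phenylbutazone animals and in vehicle 1 and 2, and at 6.72 in vehicle 3. Its difference was 0.098 ± 0.12. Txnrd1, thioredoxin reductase, differed by 0.28 ± 0.25 with its brightest probe, by 0.029 to 0.063 with 3 further probes, and by -0.18 within slide 2. Srxn1, sulfiredoxin, which repairs overoxidised peroxiredoxins and is a NRF2 target, stood at 0.0029 ± 0.17 (95% interval -0.40 to 0.41). A second, dimmer Srxn1 probe stood at 0.15. In the wider list of 18 tested thiol redox genes 9 were higher and 9 lower (median -0.000020), 0 past the test and 0 at an unadjusted p under 0.05 (limma).

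Cytosolic NADPH is made by malic enzyme and by the oxidative branch of the pentose phosphate pathway, whose member Pgd had no probe. The 3 measured members of this group, Tkt and Taldo1 of the non-oxidative branch and Me1, were higher in phenylbutazone, also after scaling to the median, quantile normalization and normexp. Levels of Tkt were 7.97, 7.72 and 7.81 in phenylbutazone 1, 2 and 3, against 7.52, 7.52 and 7.24 in vehicle 1, 2 and 3. Tkt, transketolase of the non-oxidative branch, showed no overlap between the groups, with 0.41 ± 0.13 (1.33-fold, 95% interval 0.10 to 0.72, limma adjusted p = 0.330), the lowest adjusted p of all members. Within slide 2 the Tkt difference was 0.59 (limma adjusted p = 0.0648 with slide as a block). In phenylbutazone 1, 2 and 3 the levels of Taldo1 were 5.13, 5.04 and 5.12, and in vehicle 1, 2 and 3 they were 5.12, 5.13 and 4.79. Taldo1, transaldolase of the same branch, was close to equal in 5 of the animals and lower in vehicle 3, and differed by 0.084 ± 0.12, which became -0.027 without vehicle replicate 3. For Me1 the values were 4.26, 4.17 and 4.38 in phenylbutazone 1, 2 and 3 and 4.45, 3.82 and 3.58 in vehicle 1, 2 and 3. Me1, cytosolic malic enzyme, overlapped between the groups, with vehicle 1 the highest animal of all, and differed by 0.32 ± 0.23, with further probes at 0.13 and 0.22.

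Of 10 other NADPH-supplying genes tested 6 were higher and 4 lower (median 0.091), with 0 past the test (limma) and 2 higher at an unadjusted p under 0.05, where 5.97% of all genes tested stood. Aldh1l1, a folate enzyme that yields NADPH, differed by 0.24 ± 0.086 (limma adjusted p = 0.368) with no overlap. The mitochondrial and cytosolic isocitrate dehydrogenase genes Idh2 and Idh1 stood at 0.079 ± 0.12 and -0.22 ± 0.40.

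In carbonyl, quinone and epoxide metabolism 6 of 8 members were higher in phenylbutazone, and Ephx1, 1 of the 6, turned lower within slide 2. Akr7a3 stood at 6.88, 7.21 and 7.37 in phenylbutazone 1, 2 and 3, against 6.70, 6.74 and 6.71 in vehicle 1, 2 and 3. Akr7a3, the rat aflatoxin aldehyde reductase, showed no overlap between the groups; the vehicle animals lay close together and the treated animals were spread above them. The difference was 0.43 ± 0.14 (1.35-fold, limma adjusted p = 0.345), and 0.44 within slide 2.

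Levels of Cbr3 were -1.32, -1.58 and -1.78 in phenylbutazone 1, 2 and 3, against -2.03, -1.85 and -1.80 in vehicle 1, 2 and 3. Cbr3, a carbonyl reductase, also showed no overlap and differed by 0.33 ± 0.15 (limma adjusted p = 0.431), with a second probe at 0.21. In phenylbutazone 1, 2 and 3 the levels of Cbr1 were 2.59, 2.28 and 2.45, and in vehicle 1, 2 and 3 they were 2.31, 2.27 and 1.80. Cbr1, its relative that also reduces prostaglandins, lay higher in the treated animals 1 and 3 than in any vehicle animal. Its difference was 0.31 ± 0.17, and further probes at 0.25 and 0.26 showed no overlap between the groups. For Nqo1 the values were -2.52, -1.95 and -2.28 in phenylbutazone 1, 2 and 3 and -2.85, -2.46 and -2.32 in vehicle 1, 2 and 3. Nqo1, the quinone reductase often read as a marker of NRF2 activity, overlapped between the groups, at 0.29 ± 0.20 with this probe and 0.41 with the other, and at 0.066 within slide 2.

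The aldose reductase relatives Akr1b8 and Akr1b10 are close paralogs, so that the specificity of their probes is uncertain. Phenylbutazone 1, 2 and 3 had Akr1b8 levels of 4.20, 0.53 and 0.26, against 0.40, 0.50 and 0.94 in vehicle 1, 2 and 3. For Akr1b8 a single animal, phenylbutazone 1, stood far above the others, and the animals spanned a 15.4-fold range, so the mean difference of 1.05 ± 1.03 became -0.22 without phenylbutazone replicate 1. Akr1b10 stood at 1.97, 1.66 and 0.39 in phenylbutazone 1, 2 and 3, against 1.51, 1.59 and 1.43 in vehicle 1, 2 and 3. Akr1b10 was low in phenylbutazone 3 with this probe, while its second probe gave 1.30, 1.01 and 0.86 in phenylbutazone and 0.51, 0.52 and 1.98 in vehicle, so the 2 probes did not give the same order of animals.

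Levels of Ephx1 were 3.68, 3.64 and 3.66 in phenylbutazone 1, 2 and 3, against 3.13, 3.22 and 3.80 in vehicle 1, 2 and 3. Ephx1, microsomal epoxide hydrolase, was nearly equal in the 3 treated animals, above vehicle 1 and 2 and below vehicle 3. The difference was 0.28 ± 0.19 over all arrays, -0.14 within slide 2 and 0.49 without vehicle replicate 3, where limma gave an adjusted p of 0.0447; its adjusted p ran between 0.0447 and 0.983 over the settings tried, and without that animal treatment and slide cannot be told apart. In phenylbutazone 1, 2 and 3 the levels of Ugdh were 2.46, 2.62 and 2.52, and in vehicle 1, 2 and 3 they were 2.82, 2.71 and 2.64. Ugdh, which makes UDP-glucuronate for conjugation, lay lower in each treated animal than in any vehicle animal, with a difference of -0.19 ± 0.10 (limma adjusted p = 0.488). Of 11 other genes of carbonyl and quinone reduction 5 were higher and 6 lower (median -0.065), 0 past the test (limma). Among them 1 stood at an unadjusted p under 0.05, Blvrb, which encodes a flavin and biliverdin reductase. For Blvrb the values were 3.22, 3.26 and 3.35 in phenylbutazone 1, 2 and 3 and 2.90, 2.71 and 2.89 in vehicle 1, 2 and 3. The groups did not overlap, the difference was 0.44 ± 0.10 (limma adjusted p = 0.271), and further probes stood at 0.45 and 0.43. Blvrb is abundant in erythrocytes, whose markers had a median of 0.39 in the same comparison, with sums that overlapped between the groups. The part of erythrocytes in the Blvrb difference was not tested.

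**Figure D3:**
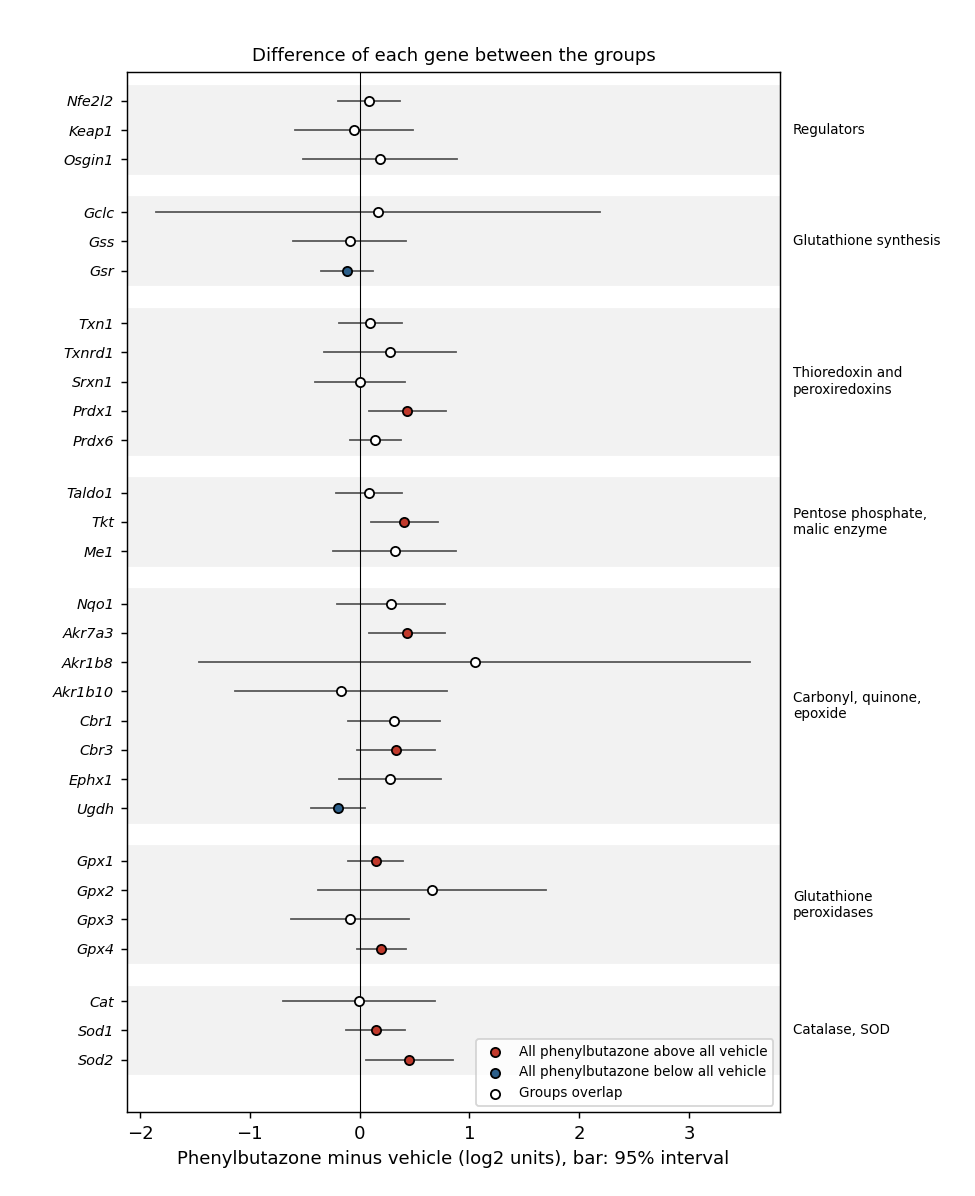
Difference of each tested member, phenylbutazone minus vehicle in log2 units, with its 95% interval (bars, limma) for 3 animals per group; filled symbols mark genes whose groups do not overlap, 8 higher (red) and 2 lower (blue). The intervals of Prdx1, Tkt, Akr7a3 and Sod2 lie above 0 without adjustment for the number of genes, and those of Akr1b8 and Gclc are the widest.

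Among the glutathione peroxidases, which reduce peroxides with glutathione, 3 of 4 were higher in phenylbutazone (median 0.17). Phenylbutazone 1, 2 and 3 had Gpx4 levels of 7.58, 7.69 and 7.67, against 7.43, 7.41 and 7.51 in vehicle 1, 2 and 3. Gpx4, which reduces lipid hydroperoxides in membranes, showed no overlap, with 0.20 ± 0.092 (limma adjusted p = 0.452), but further probes stood at 0.0046 and 0.064. Gpx1 stood at 8.32, 8.25 and 8.40 in phenylbutazone 1, 2 and 3, against 8.24, 8.05 and 8.24 in vehicle 1, 2 and 3. Gpx1, the cytosolic enzyme that erythrocytes also hold, showed no overlap either, with 0.15 ± 0.10 and 0.079 within slide 2. A second Gpx1 probe stood at 0.21.

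Levels of Gpx2 were 4.22, 5.02 and 4.22 in phenylbutazone 1, 2 and 3, against 4.41, 2.94 and 4.13 in vehicle 1, 2 and 3. Gpx2, a NRF2 target best known from the gut, was low in vehicle 2, and the 2 further probes were lowest in the same animal. Its difference of 0.66 ± 0.43 was 0.22 without vehicle replicate 2. In phenylbutazone 1, 2 and 3 the levels of Gpx3 were 8.27, 8.19 and 8.06, and in vehicle 1, 2 and 3 they were 7.96, 8.06 and 8.75. Gpx3, the secreted plasma enzyme made by the proximal tubule, was highest in vehicle 3 and differed by -0.085 ± 0.22 over all arrays and by -0.58 within slide 2 (limma adjusted p = 0.0642 with slide as a block).

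Catalase and the superoxide dismutases differed in their patterns over the animals. For Cat the values were 3.38, 3.49 and 3.50 in phenylbutazone 1, 2 and 3 and 3.09, 3.17 and 4.14 in vehicle 1, 2 and 3. Cat, the peroxisomal catalase gene, was higher in vehicle 3 than in the other 5 animals and higher in the 3 treated animals than in vehicle 1 and 2. Its difference was -0.0080 ± 0.29 over all arrays, -0.68 within slide 2 (limma adjusted p = 0.0594 with slide as a block) and 0.33 without vehicle replicate 3.

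Phenylbutazone 1, 2 and 3 had Sod2 levels of 3.23, 3.10 and 3.67, against 2.81, 2.89 and 2.93 in vehicle 1, 2 and 3. Sod2, the mitochondrial manganese enzyme, showed no overlap, with 0.45 ± 0.16 (1.37-fold, limma adjusted p = 0.370). A second Sod2 probe, also well above background on 6 arrays, stood at -0.12, with 1.50, 1.40 and 1.46 in phenylbutazone and 1.59, 1.60 and 1.51 in vehicle, so the Sod2 difference rests on 1 of 2 probes. Sod1 stood at 7.98, 7.77 and 7.75 in phenylbutazone 1, 2 and 3, against 7.73, 7.74 and 7.59 in vehicle 1, 2 and 3. Sod1, the cytosolic copper-zinc enzyme, showed no overlap by a narrow margin, with 0.15 ± 0.11 and further probes at 0.15 and 0.19.

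**Figure D4:**
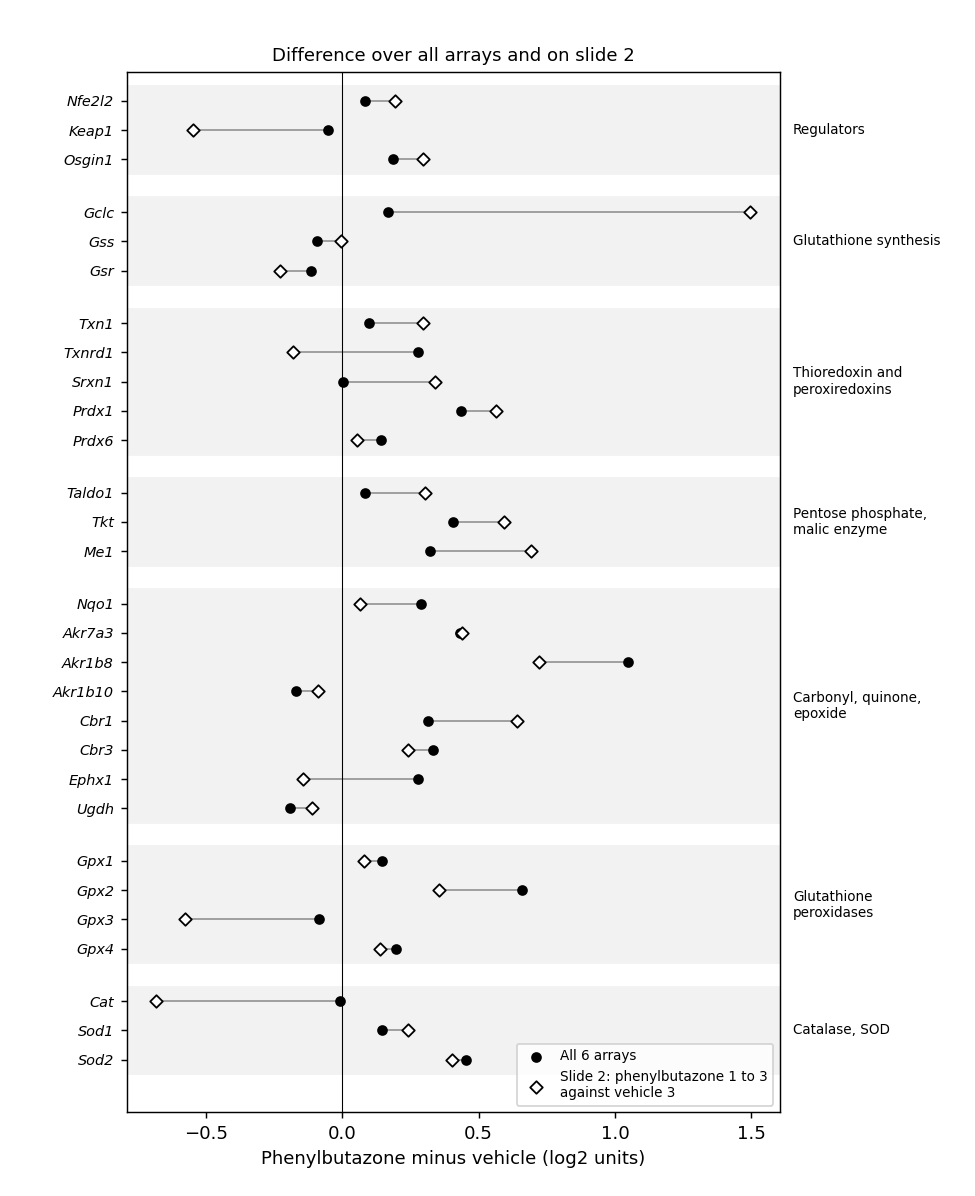
Difference of each tested member, phenylbutazone minus vehicle in log2 units, over all 6 arrays (filled circles) and within slide 2, where 3 phenylbutazone arrays face vehicle 3 (open diamonds). Tkt, Prdx1, Akr7a3 and Sod2 stay above 0, Txnrd1 and Ephx1 cross 0, and Keap1, Gpx3 and Cat go to -0.55, -0.58 and -0.68 within slide 2.

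Within slide 2 the members were spread further in both directions. Of the 29 tested members 20 were higher and 9 lower with slide as a block, with a median of 0.24 against 0.055 for all genes tested. At an unadjusted p under 0.05 (limma) stood 10 of 29 members, 34.5%, against 31.6% of all genes tested, 6 higher and 4 lower; 0 passed after adjustment. The 6 higher ones were Txn1, Srxn1, Prdx1, Taldo1, Tkt and Cbr1, and the 4 lower ones Keap1, Gsr, Gpx3 and Cat. This setting rests on vehicle 3 as the single vehicle array of slide 2.

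By function, the 4 groups that use or supply reducing power differed in their medians but not in calls. The medians were -0.091 for glutathione synthesis and recycling, 0.14 for the thioredoxin group, 0.32 for the pentose phosphate and malic enzyme group and 0.30 for carbonyl, quinone and epoxide metabolism, with 0 members past the test in each (limma) and 0, 1, 1 and 1 at an unadjusted p under 0.05. With slide as a block they were -0.0034, 0.30, 0.59 and 0.15 in the same order, so the thioredoxin and carbonyl groups changed places. Leaving out 1 animal moved the glutathione median between -0.30, when animal 3 of the phenylbutazone group was left out, and 0.11, when its animal 1 was. The pentose phosphate and malic enzyme median ran between 0.14 without vehicle replicate 3 and 0.45 without vehicle replicate 1. Over all arrays its value of 0.32 is that of Me1, malic enzyme, beside 0.41 for Tkt and 0.084 for Taldo1. Differences between these groups were not tested. The group medians per animal showed no overlap of treatments for the thioredoxin group, for carbonyl, quinone and epoxide metabolism, for the glutathione peroxidases and for catalase and the superoxide dismutases. For carbonyl, quinone and epoxide metabolism they stood at 0.24, 0.13 and 0.034 in phenylbutazone 1, 2 and 3 and -0.26, -0.096 and -0.034 in vehicle 1, 2 and 3. For glutathione synthesis and recycling they were -0.44, -0.049 and 0.38 in phenylbutazone and 0.092, 0.087 and -0.042 in vehicle. Members with the TGACNNNGC core in a promoter window had a median of 0.30 over all arrays (8 tested, 7 higher, 1 lower). Members with a window but no core had one of 0.15 (19 tested, 14 higher, 5 lower). Within slide 2, Txnrd1, Ephx1 and Ugdh of those with the core were lower. Nfe2l2, Prdx1, Gpx2, Me1 and Sod2 were higher there. The Sod2 value of 0.45 rests on 1 of 2 probes. The difference between members with and without the core was not tested.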

How the data were processed

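One-colour Agilent arrays of 3 phenylbutazone and 3 vehicle rats were analysed. Per the file headers, the deposited intensity values (processed signals) came from Agilent Feature Extraction 10.7 and were background-subtracted and detrended. The deposited value table holds, judged against the scanner values, the ratio of processed signal to nearly the 75th percentile of the same array (0.11% to 0.30% apart, column medians 0.1049 to 0.1101, no centring of genes).

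From the 61537 non-control probes, 40 with an outlier flag were left out, and log2 processed signals were set relative to the array's 75th percentile. A probe was kept if 3 or more of the 6 arrays measured it well above background (41006 probes). Of all probes 28206 (45.8%) were named through RefSeq accessions (GRCr8), and each of 29938 genes was represented by its brightest probe. An accession without a symbol counted as a gene of its own, and 12155 of the 29938 had a symbol. limma 3.58.1 in R 4.3.3 gave two-sided p-values, adjusted by Benjamini-Hochberg over all genes; the fit was tested on simulated data. A bound for a dim probe raises only the group with no array well above background. Each array there takes the higher of its own level and its lowest level well above background. The other group keeps its own levels.

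Members and gene lists were chosen with earlier results of these data known. All members are named, and of the other pathway lists the genes with an unadjusted p under 0.05, up to 3 a list; others named were chosen after their values were seen. One gene that this rule names is not reported here. The alternatives were median scaling, quantile normalization, normexp (offset 50), the deposited ratios, probe filters and summaries, an intensity trend, slide as a block, a replicate block and leaving out each animal. Deviations of animals with the same replicate number correlated at -0.030, 0.011 and -0.074, so the numbers were not taken as pairs.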

Additional observations from a re-analysis of the deposited data

How the results depend on the processing

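Over the 19 settings tried, 0 of 29 members passed the limma test in 18, and 16 members never changed sign. Genes called over the whole array numbered 1 with quantile normalization, 2 with normexp, 8 with an intensity trend and 1 with slide as a random block (correlation 0.572). Leaving out 1 animal gave 0 to 814 genes (814 without vehicle replicate 3, 237 higher and 577 lower, where treatment and slide cannot be told apart) and 0 to 1 members (Ephx1). Members at an unadjusted p under 0.05 numbered 10 with slide as a fixed block and 9 within slide 2, where the lone vehicle sample is taken to vary as the phenylbutazone arrays do, and 2 to 7 with 1 animal left out; members whose groups did not overlap numbered 22 within slide 2 and 11 to 16 with 1 animal left out, where fewer arrays make this easier. Vehicle 3 was the highest or lowest of the 6 arrays for 57.6% of all genes tested and 51.7% of the members. Each such gene shows no overlap within slide 2. Full non-overlap counts over all genes are not given for these settings, so the member counts cannot be set against a share of all genes. With 1 animal left out, 2215 to 6574 of 29938 genes stood at an unadjusted p under 0.05 (limma). Within slide 2 many genes beyond the members stood there as well, so the 9 members do not set the list apart. That setting rests on vehicle 3 as its single vehicle array. The median of all members was 0.2153 with median scaling (which moved the median of all genes to 0.063), 0.0858 with quantile normalization, 0.1463 without the filter, 0.1423 with the mean over probes, 0.2407 with slide as a fixed block or within slide 2, and 0.2067 with slide as a random block.

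Quantile normalization gave medians of 0.0704 for glutathione peroxidases and 0.0323 for catalase and superoxide dismutases. Slide as a fixed block and slide 2 alone gave 0.2971 for the thioredoxin group, 0.5920 for the pentose phosphate and malic enzyme group, 0.1539 for carbonyl, quinone and epoxide metabolism, 0.1082 for glutathione peroxidases and 0.2407 for catalase and superoxide dismutases; the random block gave 0.5258 for the pentose phosphate group and 0.2067 for catalase and superoxide dismutases. With 1 animal left out the medians ran over 0.1387 to 0.1858 for all members, 0.2089 to 0.3917 for carbonyl metabolism, 0.0736 to 0.3283 for catalase and superoxide dismutases, 0.1301 to 0.2031 for glutathione peroxidases, -0.3044 to 0.1051 for glutathione synthesis, 0.1352 to 0.4544 for the pentose phosphate group, -0.0206 to 0.1384 for the regulators and 0.1026 to 0.1871 for the thioredoxin group.

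Signs turned for Cat (0.0394, median scaling), Txn1 (-0.0272) and Srxn1 (-0.0172) with quantile normalization, Srxn1 (-0.0078) with normexp, Txnrd1 (-0.1818) and Ephx1 (-0.1436) with slide as a fixed block or slide 2 alone, and Txnrd1 (-0.0170) with the random block. With 1 animal left out the ranges that cross 0 were -0.4824 to 0.3067 (Akr1b10), -0.2213 to 1.7508 (Akr1b8), -0.1973 to 0.3283 (Cat), -0.4960 to 0.9127 (Gclc), -0.2336 to 0.1601 (Gpx3), -0.3044 to 0.1051 (Gss), -0.1812 to 0.1959 (Keap1), -0.0981 to 0.4394 (Osgin1), -0.1664 to 0.1128 (Srxn1), -0.0266 to 0.1399 (Taldo1) and -0.0016 to 0.1657 (Txn1). The causes were not tested.

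A replicate block left the differences as they were and called 0 genes, with 2695 genes and 3 members at an unadjusted p under 0.05; it changed no call. Signal over background limited Gclm and Slc7a11, and 3 animals per group limit every comparison.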

Other observations

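Beside the members, 3 genes of the wider lists had single animals far from the rest, each by 1 probe, and were chosen after their values were seen. Hmox1, the heme oxygenase gene that NRF2 induces and BACH1 represses, stood at -0.32, -0.89 and -0.37 in phenylbutazone 1, 2 and 3, against -1.55, 2.76 and -1.09 in vehicle 1, 2 and 3. Vehicle 2 was thus far above the other 5 animals, and all 3 treated animals lay above vehicle 1 and 3. Ephx2, soluble epoxide hydrolase, stood at 3.01, 1.71 and -1.22 in phenylbutazone 1, 2 and 3, against 2.66, 2.36 and 3.43 in vehicle 1, 2 and 3, with the low value in phenylbutazone 3. Cryz, a quinone reductase relative, stood at 2.43, 4.03 and 4.24 in phenylbutazone 1, 2 and 3 and at 2.90, 4.16 and 4.37 in vehicle 1, 2 and 3, low in 1 animal of each group.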
